A study of Mus musculus with 3 samples.

Results

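Binding of SRF, the serum response factor, was examined at 8 early response genes of the mouse cornea: Ier2, Ier3, Ier5, Btg1, Btg2, Zfp36, Zfp36l1 and Zfp36l2. Members were taken by name, and every merged SRF region to which the authors assigned a member was used. This gave 14 of 31850 regions and 7 of the 16697 genes with a region. Btg2 was the member without one. SRF-bound DNA from whole cornea of untreated mice of mixed background, about 8 weeks old, was immunoprecipitated and sequenced. The libraries compared were 1 from Dstn-corn1 mutant corneas, in which the actin-severing and depolymerizing protein destrin is not functional, and 1 from wildtype corneas. Input DNA, taken without antibody, made up a further library that was not used here. The growth notes name mutant mice for every library, so genotype rests on the sample titles. The sources used here do not say how many mice gave each library.

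The IER, BTG and ZFP36 families belong to the early response genes, whose transcription rises within minutes of growth factor or stress signals without new protein synthesis. SRF binds a short DNA element, the CArG box, and activates such genes together with ternary complex factors of the ETS family, which read a GGAA core beside it, or with MRTF cofactors that respond to free actin. IER proteins act on transcription and survival. BTG proteins restrain proliferation, and ZFP36 proteins bind AU-rich elements in mRNA; both recruit the CCR4-NOT deadenylase, which shortens poly(A) tails. The early response program thus includes proteins that remove its own mRNAs.

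The promoters of the members show where such elements stand. Of the 8 members, 6 had a promoter in the RefSeq table (GRCm38.p6, the assembly behind mm10; 250 bases before to 50 after the gene start); Ier2 and Zfp36l2 were not matched. A CArG box was present in 1 of these 6, that of Zfp36, against 1.63% of 32851 promoters in the table. Promoters are printed for Zfp36, which held the box under an SRF region, for Ier3, which held 2 near matches but no region over its start, for Btg1, where the libraries differed least in deposited peak height, and for Btg2, which had no region. In the Zfp36 sequence (chr7:28379179-28379478, minus strand) capitals mark an ETS core, CCGGAA, found in 14.9% of promoters, and then the CArG box. In the Ier3 sequence (chr17:35821463-35821762, plus strand) capitals mark CArG boxes with 1 mismatch in the A/T core, present in 9.98% of promoters when exact matches are included. In the Btg1 sequence (chr10:96616751-96617050, plus strand) capitals mark TGACG read on the opposite strand, found on either strand in 20.8% of promoters. In the Btg2 sequence (chr1:134079106-134079405, minus strand) capitals mark TGACGTCA, the cAMP response element, which itself contains TGACG on both strands and was found in 1.79% of promoters. All motifs were searched on both strands, and the motifs other than the CArG box were chosen after the sequences were seen.
Zfp36: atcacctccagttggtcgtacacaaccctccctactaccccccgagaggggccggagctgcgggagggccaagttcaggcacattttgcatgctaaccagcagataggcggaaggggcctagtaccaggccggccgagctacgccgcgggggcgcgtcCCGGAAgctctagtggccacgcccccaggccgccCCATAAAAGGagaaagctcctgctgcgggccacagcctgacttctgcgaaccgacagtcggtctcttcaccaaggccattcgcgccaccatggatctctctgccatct
Ier3: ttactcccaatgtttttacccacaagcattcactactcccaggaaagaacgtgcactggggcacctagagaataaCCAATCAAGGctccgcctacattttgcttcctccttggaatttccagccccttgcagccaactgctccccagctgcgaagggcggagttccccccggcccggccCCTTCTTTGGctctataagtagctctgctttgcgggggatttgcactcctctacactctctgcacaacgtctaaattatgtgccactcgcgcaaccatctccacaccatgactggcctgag
Btg1: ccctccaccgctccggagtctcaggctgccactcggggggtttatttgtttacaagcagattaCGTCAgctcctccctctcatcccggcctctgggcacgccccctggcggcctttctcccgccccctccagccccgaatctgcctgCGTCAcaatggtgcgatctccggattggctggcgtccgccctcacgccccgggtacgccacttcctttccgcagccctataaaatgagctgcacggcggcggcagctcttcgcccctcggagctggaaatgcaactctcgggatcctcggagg
Btg2: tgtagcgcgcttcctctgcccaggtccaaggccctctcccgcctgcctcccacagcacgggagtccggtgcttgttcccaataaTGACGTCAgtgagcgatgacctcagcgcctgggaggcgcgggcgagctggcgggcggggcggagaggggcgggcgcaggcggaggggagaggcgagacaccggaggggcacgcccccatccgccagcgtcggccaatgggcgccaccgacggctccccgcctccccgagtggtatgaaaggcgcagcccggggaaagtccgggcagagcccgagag
A match says only that these letters occur. The CArG box was present in 1.26% of the 7636 promoter windows that overlapped an SRF region and in 1.74% of the 25215 that did not.

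The libraries differed in height almost everywhere, which sets the background for each value below. Heights are the peak values of the deposited table, the signal where a region is tallest. Ratios are log2 of mutant over wildtype height with 1 added to both heights, which shrinks the ratios of low regions. The median ratio over all regions was -1.10, and 3.69% of regions were higher in mutant. The sources used here do not say how heights were scaled between libraries. With mutant heights multiplied by 2.1, so that regions called in both libraries had the same median, the overall median was -0.090. The depth of the libraries is unknown, since read totals were not used. With 1 library per genotype, no difference has a replicate check and no test was possible. The 3 regions at Dstn, the mutated gene, were listed at 0 in mutant and between 11 and 35 in wildtype, so these values did not go against the titles. Of 10 corneal marker genes 6 had a region, and Aldh3a1, Kera, Aqp1 and Slc4a11 had none; SRF binding does not measure whether a gene is expressed, so the tissue label could not be checked this way.

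**Figure D1:**
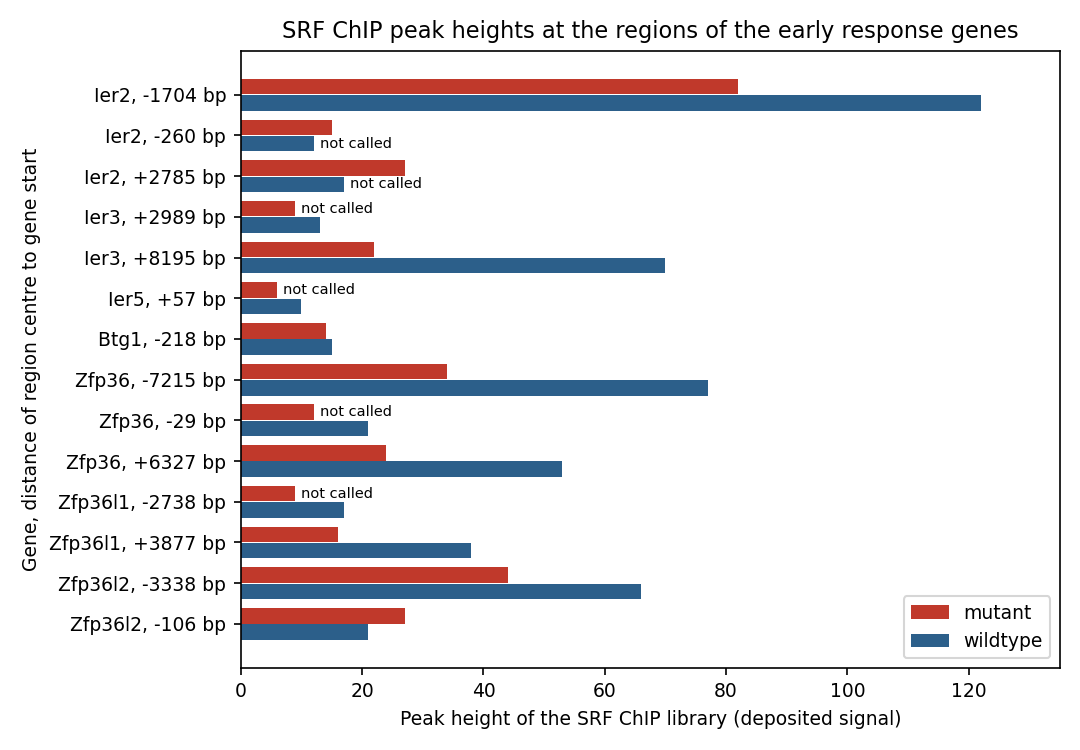
Peak heights of the mutant (red) and wildtype (blue) SRF library at the 14 regions assigned to the early response genes, in deposited signal units, with the distance of each region centre to the gene start; "not called" marks a library without an interval there. The Ier2 region 1704 bp upstream is the highest in both libraries, at 82 in mutant and 122 in wildtype, and 3 regions are higher in mutant.

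Ier2 encodes a short-lived nuclear protein of the immediate early response. It lies on chromosome 8 (84661331 to 84662852, minus strand) and carried 3 regions, of which 2 were higher in mutant. The highest of all member regions (84663689 to 84665424) was centred 1704 bp upstream of its start, reaching 82 in mutant against 122 in wildtype (log2 ratio -0.57). It stood above 99.7% of all regions in mutant and 98.5% in wildtype. The wildtype library had 2 intervals in it, of heights 122 and 21, and the mutant library had 1. The summits of the highest intervals lay 1244 bp upstream of the start in mutant and 1212 bp upstream in wildtype, 32 bp apart. Averaged over the region, the height was 20.8 in mutant and 19.9 in wildtype, so that the ratio turned to 0.060. The authors also assigned this region to Nacc1, whose start is 23306 bp away.

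The other Ier2 regions were low in wildtype. The region over the start (84662603 to 84663622, centred 260 bp upstream) had 15 in mutant against 12 in wildtype (log2 ratio 0.30). The region past the end of the gene (84659717 to 84660417, centred 2785 bp past the start) had 27 in mutant against 17 in wildtype (log2 ratio 0.64), and only 0.788% of all regions had a higher ratio. Intervals were called at both in the mutant library and at neither in the wildtype library. The 27 of the second stood above 86.8% of regions in mutant, whereas the wildtype 17 stood above 18.4%. Over the 3 regions the mean height of Ier2 was 41.3 in mutant and 50.3 in wildtype, above 97.6% of genes with a region in mutant and 82.8% in wildtype.

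Ier3, which encodes the stress-induced survival regulator IEX-1, had no region that was higher in mutant as deposited, although the nearer one turned to 0.51 with common scaling. It lies on chromosome 17 (35821713 to 35822911, plus strand), and both of its regions lay past its end. The farther one (35829526 to 35830291, centred 8195 bp past the start) had 22 in mutant against 70 in wildtype (log2 ratio -1.63), the lowest among the 14 regions as deposited. Its summit was at the same position in both libraries. This region lies inside Flot1, 6551 bp past the start of that gene, and was also assigned to Tubb5. The nearer one (35824491 to 35824913, centred 2989 bp past the start) had 9 in mutant against 13 in wildtype (log2 ratio -0.49), and was called in wildtype only. It also lies inside Flot1, 1345 bp past that start. No region overlapped the Ier3 promoter printed above, whose near matches to the CArG box began 175 and 71 bases upstream of the start.

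Ier5, an early response gene linked to the heat shock factor HSF1, carried the lowest signal of the group. Its only region, over the start on chromosome 1 (155099386 to 155099773, centred 57 bp inside the gene), had 6 in mutant against 10 in wildtype (log2 ratio -0.65). It was called in wildtype only, and its heights stood above 11.0% of regions in mutant and 1.08% in wildtype.

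Btg1, an antiproliferative gene first found at a B cell translocation, differed least between the libraries in deposited peak height. Its region over the start on chromosome 10 (96616338 to 96617228, centred 218 bp upstream, in a CpG island) had 14 in mutant against 15 in wildtype (log2 ratio -0.093, and 0.93 with common scaling). In average height its ratio was -0.27, and the start region of Zfp36l2 (0.035) and the upstream region of Ier2 (0.060) were closer to level. It covered the whole promoter window printed above and was called in both libraries. The summits lay 169 bp upstream of the start in mutant and 350 bp upstream in wildtype, 181 bp apart. These nearly equal heights stood above 50.8% of regions in mutant and 11.5% in wildtype.

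Btg2, its paralog and a known target of p53, had no region assigned to it. It lies on chromosome 1 (134074865 to 134079155 in RefSeq, minus strand), and no region overlapped its promoter. The nearest region (134092629 to 134093706) lay upstream, with its centre 14012 bp from the Btg2 start, and was assigned to no gene. The farthest upstream centre the authors assigned to any gene lay 11429 bp from its start. This unassigned region, looked up after its values were seen and not counted among the 14, had 77 in mutant against 98 in wildtype (log2 ratio -0.34) that became 0.72 with common scaling. It overlapped a CpG island, was called in both libraries and stood above 99.7% of regions in mutant and 97.4% in wildtype. Its summits lay 13965 bp from the Btg2 start in mutant and 13933 bp in wildtype. On the other side, the nearest region was centred 17911 bp past the start of Btg2, in Gm19497, with 10 in mutant and 22 in wildtype. These positions do not show which gene the region acts on.

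Zfp36 encodes tristetraprolin, which binds AU-rich elements of cytokine and early response mRNAs and speeds their decay. It lies on chromosome 7 (28376784 to 28379228, minus strand) and had 3 regions, all lower in mutant as deposited, although the one over the start turned to 0.25 with common scaling. That region over the start (28378946 to 28379568, centred 29 bp upstream) reached 12 in mutant against 21 in wildtype (log2 ratio -0.76), and was called in wildtype only. It covered the printed promoter, whose CArG box began 58 bases upstream of the start, with 28 bases between it and the ETS core. The wildtype summit was listed 17.5 bp from the centre of that box, less than the smallest gap between differing summits of the 2 libraries, 32 bp. The highest region (28386094 to 28386792, centred 7215 bp upstream) had 34 in mutant against 77 in wildtype (log2 ratio -1.16), with the summit at the same position in both libraries. It lies inside Med29, 6247 bp past its start, and was assigned to Paf1 as well. The third (28371992 to 28373810, centred 6327 bp past the start) had 24 in mutant against 53 in wildtype (log2 ratio -1.11). That one covers the start of Plekhg2, 239 bp from its centre, and its highest intervals in the 2 libraries had summits 1056 bp apart. The mutant library had a second interval there, of height 21, whose summit was 80 bp from the wildtype one. The taller Zfp36 regions were thus those inside or at the start of neighbouring genes, and the one over the Zfp36 start was the lowest of the 3 in both libraries. Only promoter windows were searched for CArG boxes, so whether the taller regions hold one was not examined.

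Zfp36l1, a paralog also known as BRF1, had 2 regions on chromosome 12 (gene at 80107760 to 80113013, minus strand), and neither overlapped its start. The region inside the gene (80108893 to 80109379, centred 3877 bp past the start) had 16 in mutant against 38 in wildtype (log2 ratio -1.20), and was assigned to no other gene. The upstream region (80115440 to 80116063, centred 2738 bp from the start) had 9 in mutant against 17 in wildtype (log2 ratio -0.85), and was called in wildtype only. The ratio inside the gene was close to the median of all regions (-1.10). The upstream one was above that median, and 32.5% of regions had a higher ratio.

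Zfp36l2, the remaining paralog, had 2 regions on chromosome 17 (gene at 84183924 to 84187947, minus strand), and they differed in direction as deposited. The region over its start (84187729 to 84188377, centred 106 bp upstream, in a CpG island) had 27 in mutant against 21 in wildtype (log2 ratio 0.35), and 1.65% of all regions had a higher one. It was called in both libraries, with summits 85 bp upstream in mutant and 53 bp upstream in wildtype. The taller region (84190541 to 84192029, centred 3338 bp upstream) had 44 in mutant against 66 in wildtype (log2 ratio -0.57). Averaged over the start region, the libraries were almost level, at 10.4 in mutant and 10.2 in wildtype. Both regions are listed for Thada too, at 278155 bp and 274923 bp from its start.

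**Figure D2:**
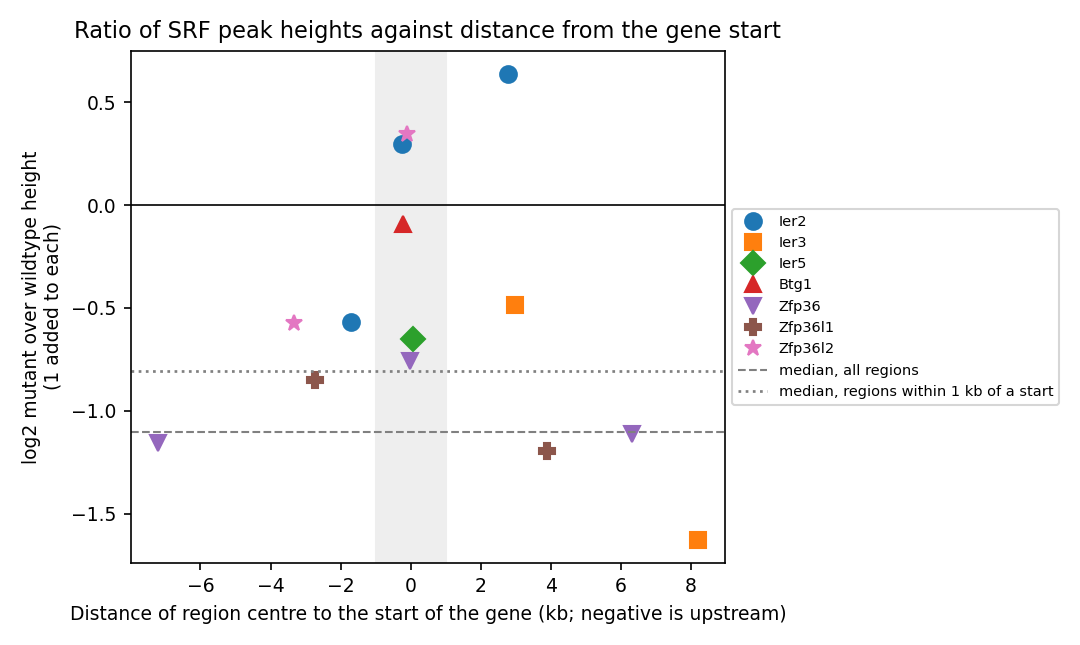
Log2 ratio of mutant over wildtype height (1 added to each) of the 14 regions against the distance of the region centre from the gene start in kb, with 1 symbol per gene and 1 kb on either side of the start shaded. The dashed line is the median of all regions (-1.10) and the dotted line that of all regions within 1 kb of a gene start (-0.81); the 5 member regions in the shaded band lie between -0.76 and 0.35.

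Set side by side, the 14 regions had a median log2 ratio of -0.61, against -1.10 over all regions. The median was above that of all regions by 0.49 as deposited and by 0.48 with common scaling, but by 0.24 with average heights. The gap was 0.12 among regions called in both libraries, where 8 members had a median of -0.84 and all regions -0.96. It was 0.073 among regions with a height of 28 or more in either library, where 6 members had a median of -1.13 and all regions -1.21. The gap was thus smaller among the taller regions and among those called in both libraries than over all 14. The Ier2 region past the end of the gene and the start region of Zfp36l2 reached 27, just below the cutoff of 28. Both were higher in mutant, so the gap among taller regions depends on where the cutoff lies, and no other cutoff was tried. Of the 14, 10 had a ratio above the median of all regions. As deposited 3 of 14 (21.4%) were higher in mutant, against 3.69% of all regions, and these were the lower 2 of Ier2 and the start region of Zfp36l2; common scaling put 10 of 14 and 43.5% of all regions higher in mutant. Without the Ier2 regions, 1 of 11 was higher in mutant. At least 2-fold lower in mutant as deposited were 4 of 14 (28.6%), against 59.0% of all regions, and they were the farther Ier3 region, both outer Zfp36 regions and the Zfp36l1 region inside the gene. That count was 2 of 14 with average heights, against 35.5% of all regions, and 0 with common scaling, against 9.30%. Among the 6 taller members it was 4 (66.7%), near the 68.6% of all regions of such height. As deposited 0 of the 14 were at least 2-fold higher in mutant, where all regions had 0.414%. With common scaling 3 were, against 4.58% of all regions: the lower 2 of Ier2 and the start region of Zfp36l2.

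Of the 14 regions, 8 were called in both libraries (48.9% of all regions), 2 in mutant only (2.10%) and 4 in wildtype only (49.0%). The 2 called in mutant only were both at Ier2, and those called in wildtype only were at Ier3, Ier5, Zfp36 and Zfp36l1. With so few regions, shifts of 1 or 2 regions change these shares widely, and their difference from the background was not tested.

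The members' regions lay both at gene starts and away from them. Within 1 kb of the member's start lay 5 of 14, those of Ier2, Ier5, Btg1, Zfp36 and Zfp36l2, against 22.7% of all regions within 1 kb of any gene start. All 5 overlapped a CpG island, a feature of 84.6% of all regions that close to a gene start. Of the other 9 members' regions 3 did, against 4.88% of farther regions, and of all regions 23.0%. Members were split by distance to their own start, and the background by distance to the start of any gene. Of the 9, the Zfp36 region centred 239 bp from the Plekhg2 start overlapped an island. In the background it counts as close to a gene start. The shares and medians set side by side in this paragraph are therefore not fully alike. The 5 had heights of 6 to 27 in mutant and 10 to 21 in wildtype, and a median log2 ratio of -0.093. Of the 5, 2 were higher in mutant, against 8.35% of the 7234 regions lying that close to any gene start, whose median ratio was -0.81. The 9 farther regions had heights of 9 to 82 in mutant and 13 to 122 in wildtype and a median of -0.85, against -1.18 over all regions farther from a start or without an assigned gene. The height ranges of the start and distal regions thus overlapped, though the tallest regions in both libraries were distal. As deposited, the start regions were closer to level between libraries. With common scaling this turned: all 5 start regions were higher in mutant, against 62.7% of all regions that close to a gene start, with a median of 0.93, and the 9 farther ones had a median of 0.14. Height moved with position here, and its part in the ratios was not tested.

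**Figure D3:**
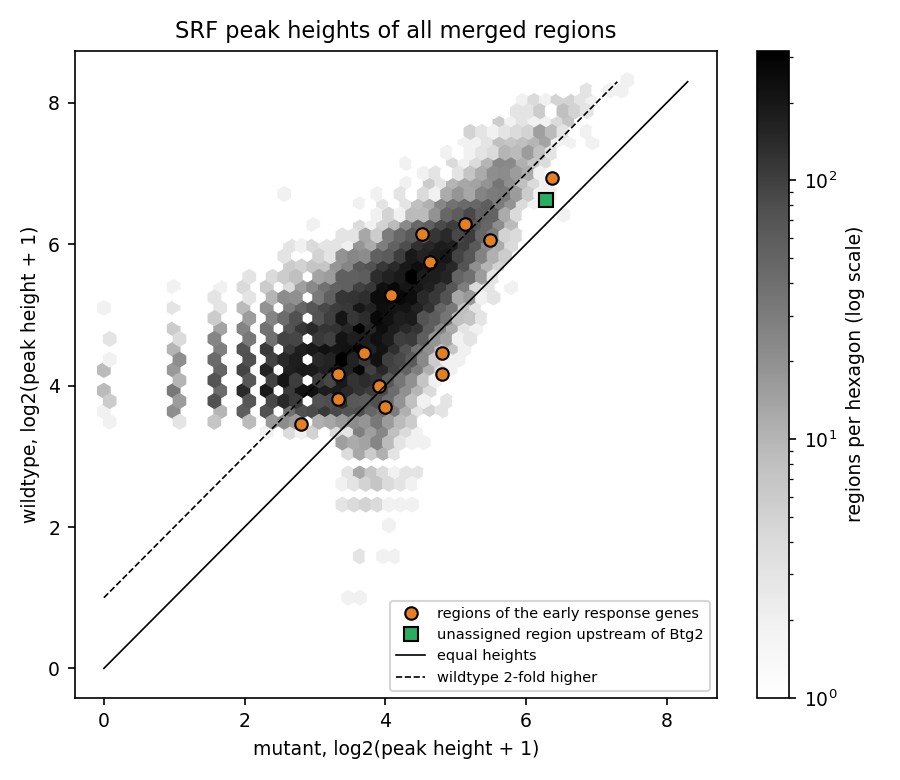
Mutant (x) and wildtype (y) peak heights, as log2(height + 1), of all 31850 merged regions (grey hexagons, shaded by number on a log scale), with the 14 member regions (orange) and the unassigned region upstream of Btg2 (green). Points below the solid line are higher in mutant, as 3 of the 14 are; points above the dashed line are over 2-fold higher in wildtype.

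Both libraries had an interval in 8 regions, and in 6 of these the summits of the highest intervals were 32 bp apart or less. Most listed summit positions lay at regular steps, and 32 bp was the smallest gap where positions differed. Gaps this small therefore cannot be read to the base. The exceptions were Btg1, at 181 bp, and the Zfp36 region at Plekhg2, at 1056 bp. In that Zfp36 region, the lower mutant interval had its summit 80 bp from the wildtype one.

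Taking each gene at its highest region, the 7 bound members had a median log2 ratio of -0.65, against -1.08 over 16697 genes, and 4 of 7 were above the median of all genes under each height measure, pseudocount and scaling tried. By the same measure 3 of 7 were at least 2-fold lower in mutant, against 57.7% of genes, and 0 were higher in mutant, against 3.23%. With common scaling the median of the 7 turned to 0.31, against -0.050 over all genes. Ier2, Ier5, Btg1 and Zfp36l2 were then higher in mutant, 4 of 7 against 45.6% of genes, and 0 were at least 2-fold lower. Ordered by this ratio, Btg1 stood at the top, at -0.093, followed by Ier2 and Zfp36l2, both at -0.57, then Ier5 at -0.65. Zfp36, Zfp36l1 and Ier3 followed at -1.16, -1.20 and -1.63. Members thus spread over a range wider than the gap between their median and that of all genes. The mutant library had an interval at 6 of the 8 genes, against 49.6% of 21900 protein-coding genes, and the wildtype library at 7, against 65.5%.

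Other genes of the same families and pathways were read from lists, with heights and ratios at the highest region of each gene. Counts of bound genes instead use the call of a gene over all its regions. Of 7 relatives, 3 were bound in mutant (42.9%) and 5 in wildtype (71.4%), against 49.6% and 65.5% of protein-coding genes. The median log2 ratio of the relatives was -1.14. Tob1 and Tob2, antiproliferative genes of the wider BTG family, had 13 in mutant and 19 in wildtype, and 19 in mutant and 26 in wildtype. Btg3 had 6 in mutant and 21 in wildtype, 18851 bp past its start in a region shared with Cxadr. Ier5l, an Ier5 paralog, had 19 in mutant and 43 in wildtype, and Ier3ip1, a secretory pathway gene named for its product's binding to IER3, had 7 in mutant and 28 in wildtype. Btg4 and Zfp36l3 had no region assigned.

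**Figure D4:**
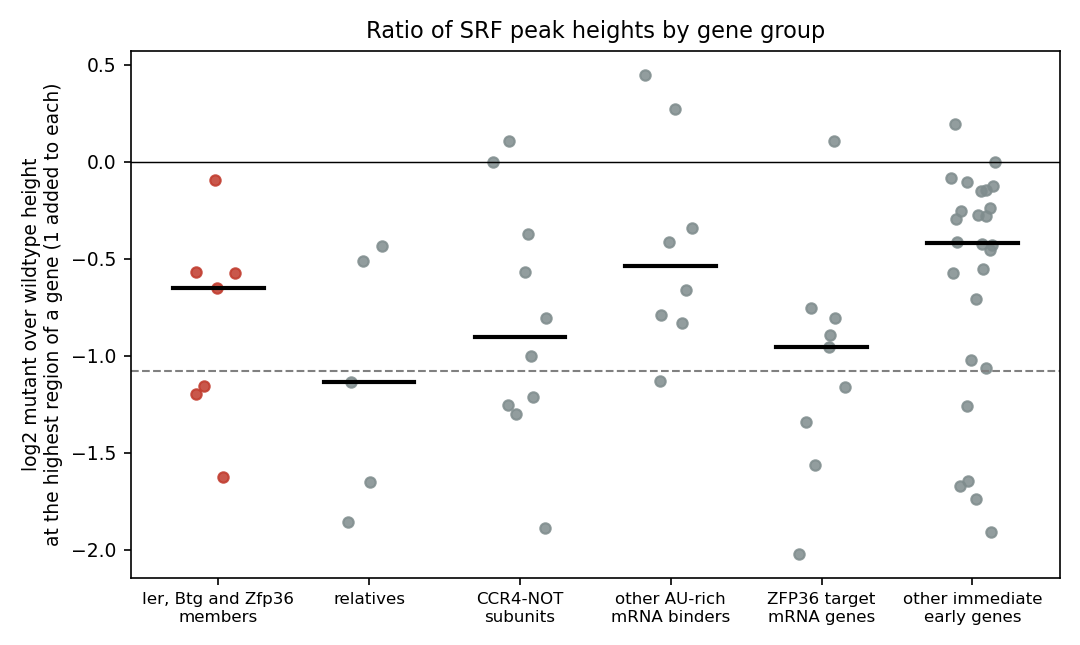
Log2 ratio of mutant over wildtype height (1 added to each) at the highest region of each bound gene, by gene group; thick bars are group medians, points are genes with horizontal jitter, and the dashed line is the median of all 16697 genes (-1.08). The members (red) have a median of -0.65 and the other immediate early genes -0.42.

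The partners and targets of the BTG and ZFP36 proteins did not form a uniform group. Of 12 CCR4-NOT subunit genes, 7 were bound in mutant (58.3%) and 8 in wildtype (66.7%), against 49.6% and 65.5% of protein-coding genes. The 10 with a region had a median ratio of -0.90. Of these, 5 (50%) were at least 2-fold lower in mutant, against 57.7% of all genes with a region. The tallest was Cnot10, with 29 in mutant and 73 in wildtype, 56258 bp past its start. Genes of other proteins that bind AU-rich mRNA numbered 9, of which 6 were bound in mutant (66.7%) and 7 in wildtype (77.8%), with a median of -0.54. Of the 8 with a region, 7 exceeded the median of all genes, and 1 (12.5%), Zc3h12a, was at least 2-fold lower in mutant. Genes whose mRNAs are known ZFP36 targets were bound in 8 of 15 in mutant (53.3%) and 9 in wildtype (60%), with a median of -0.96. Of the 9 targets with a region, 4 (44.4%) were at least 2-fold lower in mutant, and ratios ran from -2.02 to 0.11. The tallest was Vegfa, the vascular endothelial growth factor gene, with 24 in mutant against 73 in wildtype (log2 ratio -1.57). All 3 medians turned above 0 with common scaling.

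Other immediate early genes had a higher median ratio than the members, a difference that was not tested. All 26 had a region. Intervals were called in mutant at 24 (92.3%) and in wildtype at 26 (100%), against 49.6% and 65.5% of protein-coding genes. The list had a median log2 ratio of -0.42 (0.64 with common scaling), with 21 exceeding the all-gene median. The tallest were Egr1 (123 in mutant and 164 in wildtype), Dusp5 (88 in mutant and 121 in wildtype), Fos (97 in mutant and 108 in wildtype), Egr3 (81 in mutant and 109 in wildtype), Junb (83 in mutant and 98 in wildtype) and Nr4a1 (38 in mutant and 121 in wildtype). Among the members, Ier2 alone reached such heights in the mean of both libraries, at 82 in mutant and 122 in wildtype. The unassigned region upstream of Btg2 had 77 in mutant, above Nr4a1, and 98 in wildtype, the same as Junb. This list was known from earlier results to have a less negative ratio as deposited and is no independent support for the members.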

How the data were processed

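SRF ChIP libraries of whole cornea from 1 mutant and 1 wildtype group were compared. Per the submitters' processing notes, BWA was used and the build was mm10. The sources used here name no interval caller, threshold or scaling. The authors deposited signal values, a peak and an average height for each interval, merged region and gene, with gene assignments and distances. The deposited ratio of wildtype to mutant was not used, and ratios were recomputed as log2 of mutant over wildtype after adding 1. No per-sample column was left unmapped (0). Coordinates are as listed in the files; the sources used here do not say whether starts count from 0. Members with a region matched RefSeq by gene identifier. Calculations used scipy 1.17.1, pandas 2.3.3 and numpy 2.4.6 under Python 3.11.15, and matplotlib 3.10.9 drew the figures. Ratios and counts were checked on simulated heights far above the deposited ones, so the check does not cover low regions. All 8 members are named, every relative, and of the other lists up to 6 genes whose highest region was at or above that of the median member, a mean height of 46; Zc3h12a and the missing markers were added after their values were seen. The members and lists were chosen with earlier results of these data known. Alternatives covered average heights, a pseudocount of 5, common scaling, a height filter, calls, distance and shared regions.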

Additional observations from a re-analysis of the deposited data

How the results depend on the processing

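No paired analysis was possible because the genotypes had a single library each. Alternatives that added the Btg2 region, left out Ier2 or counted regions higher in mutant were chosen after seeing the data. The median ratio of the 14 regions stayed below 0 except with common scaling, which gave 0.39; the causes of such moves were not tested beyond what each setting does by construction. With average heights, 2 regions were at least 2-fold lower in mutant, and the Ier2 region 1704 bp upstream turned to 0.060. Common scaling gave 0 regions at least 2-fold lower and 10 higher in mutant. It turned 7 regions above 0: that Ier2 region (0.49), Ier3 at 2989 bp (0.51), Ier5 (0.31), Btg1 (0.93), Zfp36 at its start (0.25), Zfp36l1 upstream (0.14) and Zfp36l2 at 3338 bp upstream (0.48). Taken at the region nearest to the start, Ier2 turned to 0.30 and Zfp36l2 to 0.35. A pseudocount of 5 turned none of the 14. The count higher in mutant was 0 of the 6 regions with a height of 28 or more (0.687% of all such regions) and 1 of 8 called in both (3.47%). It was 1 of 4 with no other gene and 1 of 11 without Ier2 (3.69% of all regions). The Ier2 region at 2785 bp and the start region of Zfp36l2, both higher in mutant, reached 27, just below that height. The count at least 2-fold lower was 4 of those 6 (68.6% of all such regions) and 4 of those 8 (48.2%). It was 1 of 11 within 5 kb of the start and 1 of 4 with no other gene. Called in both were 5 of these 11 and 2 of these 4. Shares of all regions within 5 kb of a start or with no other gene were not computed, so those counts have no background. Within 5 kb lay 11 regions. The median of all regions was -0.83 with average heights, -0.93 with a pseudocount of 5, -0.090 with scaling, -1.21 at or above the height filter (members -1.13) and -0.96 over regions called in both (members -0.84). With scaling the list medians were -0.11 for relatives, 0.083 for CCR4-NOT, 0.47 for AU-rich binders, 0.068 for ZFP36 targets and 0.64 for immediate early genes, and the last was -0.19 with average heights. With 1 mismatch allowed, 2 member promoters held a CArG box. Depth is unknown, so the limit it sets on the low regions at Ier5, Btg1 and Zfp36 could not be computed.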
